A study of Mus musculus with 6 samples.

Results

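Mucins are the large, heavily O-glycosylated proteins of the mucus and of the surface of the gut lining. The 7 mucin genes described here are Muc2, Muc5ac, Muc6, Muc1, Muc4, Muc13 and Muc20, chosen by name from the 30777 genes of the deposited colon table. Muc2, Muc5ac and Muc6 encode secreted, gel-forming mucins, and Muc1, Muc4, Muc13 and Muc20 encode mucins anchored in the cell membrane. RNA of whole colon tissue from BALB/c mice, an inbred laboratory strain, was sequenced in 6 libraries. In 3 of them (5-Fu+BBR) the mice had been given 5-fluorouracil, a pyrimidine analogue used in chemotherapy, together with berberine, a plant alkaloid. The other 3 (5-Fu) came from mice given 5-fluorouracil without berberine. All mice had therefore received 5-fluorouracil, and no untreated group was analysed here. The sources used here give no dose, time, age or sex, and do not tie each library to an animal of its own. The p-values therefore measure the spread between these libraries, which may be technical.

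Gel-forming mucins are assembled by mucus-secreting cells, in the colon goblet cells, into disulfide-linked polymers that swell into mucus after release. In the colon MUC2 is the main one, whereas MUC5AC and MUC6 are best known from the stomach surface and the gastric glands. Membrane mucins stand on the luminal surface of epithelial cells, where they form the glycocalyx and pass signals to the cell through their cytoplasmic tails. In whole tissue, fewer cells of a type and less RNA per cell cannot be told apart.

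Each library held 53824752 to 63831168 estimated counts, of which the 7 mucin genes took 0.458% to 0.667%. Levels are given as FPKM, the authors' fragment number scaled to transcript length and sequencing depth, where genes are compared, and as CPM, the counts scaled to a common library size, where groups are compared. Colonic epithelium was clearly present: Epcam, an adhesion protein of epithelial cells, was at 2159, 1962 and 1953 CPM in 5-Fu+BBR against 1864, 1683 and 2052 CPM in 5-Fu. Other tissue was present in unequal amounts. The summed level of 8 kidney genes was 38.5 CPM in 5-Fu+BBR replicate 1 and 193 CPM in both replicates 2 and 3, against 46.7 to 59.9 CPM in 5-Fu. Kap alone was at 109 and 105 CPM in replicates 2 and 3. Of the 8 kidney genes, 1 had a negative log2 fold change (Nphs1, -0.51). Summed over 8 smooth muscle, 8 immune cell and 5 fat cell markers, all 3 libraries of 5-Fu+BBR lay above those of 5-Fu, and their part in the mucin levels was not tested. The sums were 4528 to 5182 CPM in 5-Fu+BBR against 2493 to 3251 CPM in 5-Fu for smooth muscle, 4088 to 7192 CPM in 5-Fu+BBR against 1840 to 2925 CPM in 5-Fu for immune cells, and 62.8 to 112 CPM in 5-Fu+BBR against 16.4 to 27.0 CPM in 5-Fu for fat cells.

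The members lie at 3 places of the genome (build GRCm38, coordinates as deposited). Muc6 (ENSMUSG00000048191, minus strand, 141633456 to 141655319), Muc2 (ENSMUSG00000025515, plus strand, 141690340 to 141754690) and Muc5ac (ENSMUSG00000037974, plus strand, 141788972 to 141819231) stand side by side on chromosome 7, with 35020 bases between Muc6 and Muc2 and 34281 between Muc2 and Muc5ac. Chromosome 16 holds Muc4 (ENSMUSG00000079620, plus strand, 32735886 to 32782391), Muc20 (ENSMUSG00000035638, minus strand, 32777419 to 32797435) and Muc13 (ENSMUSG00000022824, plus strand, 33794037 to 33819934). Muc4 and Muc20 overlap tail to tail by 4973 bases, and in the GENCODE vM21 annotation 627 of these are exonic in both, 15.6% of the exonic bases of Muc20 and 5.33% of those of Muc4. The libraries kept the strand, but the sources used here do not say whether counting did, so reads of the pair from these exons cannot be told apart. Muc1 (ENSMUSG00000042784, plus strand, 89229057 to 89233381) lies alone on chromosome 3.

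The promoters of 4 genes are shown because these carry the contrasts below: Muc2 and Muc13 as the most abundant secreted and membrane members, Muc6 as the nearly silent neighbour of Muc2, and Muc4 as the member with the largest difference between groups. Each is the stretch of 250 bases before the RefSeq start site (GRCm38.p6; for Muc13 the first of 2 start sites), written 5′ to 3′ on the gene's strand, with matches to TATAAA or GATAA or TTTATG on either strand in capitals (the core of a TATA box, and words resembling the sites of GATA and CDX factors of the gut).
Muc2, chr7:141690090-141690339, plus strand: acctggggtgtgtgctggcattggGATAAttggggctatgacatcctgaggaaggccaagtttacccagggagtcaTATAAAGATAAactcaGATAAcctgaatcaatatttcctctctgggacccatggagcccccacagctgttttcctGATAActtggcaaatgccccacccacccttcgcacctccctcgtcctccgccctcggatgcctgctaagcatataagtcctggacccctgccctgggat
Muc13, chr16:33793787-33794036, plus strand: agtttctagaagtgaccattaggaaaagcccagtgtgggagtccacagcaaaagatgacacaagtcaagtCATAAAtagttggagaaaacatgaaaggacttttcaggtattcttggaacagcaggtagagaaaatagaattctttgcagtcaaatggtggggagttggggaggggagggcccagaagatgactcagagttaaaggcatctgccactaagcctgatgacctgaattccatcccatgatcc
Muc6, chr7:141655394-141655643, minus strand: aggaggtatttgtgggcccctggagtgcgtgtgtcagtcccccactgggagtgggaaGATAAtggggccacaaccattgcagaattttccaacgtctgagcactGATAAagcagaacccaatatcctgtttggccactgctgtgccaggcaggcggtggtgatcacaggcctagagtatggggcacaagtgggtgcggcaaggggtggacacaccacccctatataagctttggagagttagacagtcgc
Muc4, chr16:32735636-32735885, plus strand: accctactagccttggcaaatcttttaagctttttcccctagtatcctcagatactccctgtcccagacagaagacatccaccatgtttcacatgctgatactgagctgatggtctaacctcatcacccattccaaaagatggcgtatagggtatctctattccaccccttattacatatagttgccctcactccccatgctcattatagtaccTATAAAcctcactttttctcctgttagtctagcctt
TATAAA was found in the windows of Muc2, Muc4 and Muc1, starting 174, 36 and 31 bases before the start site, and TATAAA occurs in 12.3% of 32536 mouse promoter windows of this length. In Muc2 this match is directly followed by a match to GATAA. That second word was found at 4 places in Muc2 and 2 in Muc6, and is present in 22.5% of all windows. TTTATG was found once, in Muc13, against 10.8% of all windows, and the window of the other Muc13 start, 452 bases downstream, had no match to any of the 3 words. The RefSeq start of Muc6 lies 74 bases from the deposited start, and Muc5ac had no entry in the promoter table used here. Only exact matches were marked. The windows of Muc2 and Muc6 also hold the letters ATATAAG, close to TATAAA, nearer to the start site than their marked words. That stretch was not counted over all windows. These matches describe the printed letters and were not tested as sites.

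Muc13 and Muc2 made up nearly all of the mucin signal of these genes. Per length, Muc13, a membrane mucin of the intestinal brush border, averaged 628 ± 103 FPKM in 5-Fu+BBR and 805 ± 53.0 FPKM in 5-Fu (SD, n = 3 each). It ranked as number 39 of 30777 genes by mean FPKM over the 6 libraries. Muc2 averaged 356 ± 99.5 FPKM in 5-Fu+BBR and 270.2 ± 40.3 FPKM in 5-Fu and ranked as number 118. Next came Muc1 with 5.95 ± 3.15 FPKM in 5-Fu+BBR and 5.44 ± 1.25 FPKM in 5-Fu, then Muc4 with 3.62 ± 0.526 FPKM in 5-Fu+BBR and 1.78 ± 0.607 FPKM in 5-Fu. Muc20 followed with 1.01 ± 0.252 FPKM in 5-Fu+BBR and 0.819 ± 0.383 FPKM in 5-Fu. Within 5-Fu+BBR, the ranges of Muc1 (3.55 to 9.52 FPKM) and Muc4 (3.07 to 4.12 FPKM) overlapped, so their order there was not fixed, while in 5-Fu every Muc1 value (4.01 to 6.33 FPKM) lay above every Muc4 value (1.40 to 2.48 FPKM). FPKM depends on the length the authors used. For Muc2 that length came to 7116 bases, close to the 7127 exonic bases of the 8 transcripts in GENCODE vM21, of which the longest has 2926 bases, so the level of Muc2 set against Muc13 (3033 bases) rests on a gene model pieced together from fragments.

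**Figure D1:**
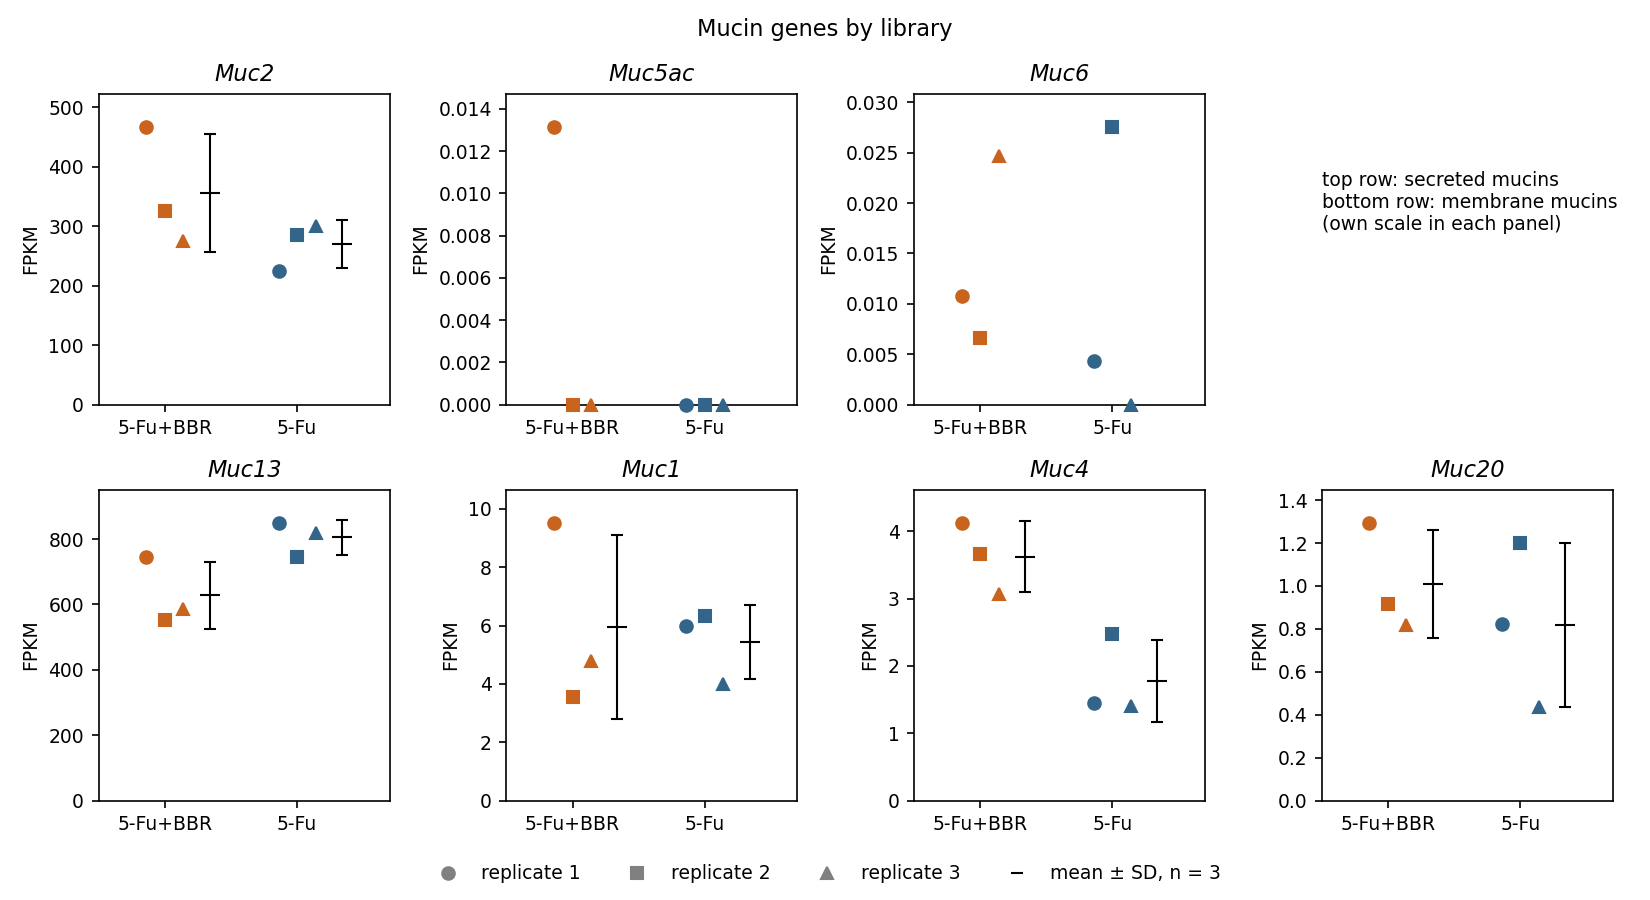
FPKM (vertical axis, a scale of its own in each panel) of the 7 mucin genes in the 3 libraries of 5-Fu+BBR (left) and of 5-Fu (right), points by replicate number and a bar for the mean ± SD where all libraries were above 0. The groups stay apart for Muc4, touch at 746 FPKM for Muc13 and mix for the others, and Muc5ac and Muc6 stay at or under 0.0276 FPKM.

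Muc5ac and Muc6 were close to absent. Muc5ac, the gel-forming mucin of the gastric surface, had 11 estimated counts in 5-Fu+BBR replicate 1 and 0 in the other 5 libraries. Muc6, from gastric glands, had 8, 4 and 16 counts in 5-Fu+BBR against 3, 20 and 0 in 5-Fu. Both were under edgeR's filter on low counts, and no fold is given for them. Stomach markers were near 0 as well: the 6 with a value, among them gastrokine genes and the proton pump subunit Atp4a, summed to between 0 and 0.850 CPM per library. The 2 genes thus flank the strongly expressed Muc2 on the same stretch of chromosome 7 at levels of at most 0.0276 FPKM. Muc5b, the gel-forming mucin of the airways, had 6 counts in 5-Fu replicate 2 and 0 in the other libraries.

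The comparison of 5-Fu+BBR with 5-Fu asks whether mucin transcripts differ when berberine is added. Of the 7 members, 5 were high enough to be tested, and 0 of the 5 passed the threshold of 0.05 on the adjusted p in edgeR's quasi-likelihood test. Of the 20101 genes tested, 0.0746% passed it, 0.0597% as higher and 0.0149% as lower. At an unadjusted p under 0.05, 1 of the 5 was higher (Muc4) and 0 were lower, where 9.48% of all genes were higher and 6.08% lower. Limma-voom gave 0 of 5 members past the adjusted threshold, where 0.0647% of all genes were called higher, and 1 past the unadjusted one, where 16.5% of all genes passed in either direction. Limma-trend on the FPKM gave 0 of the 4 members it could test (0.135% of all genes were called higher) and 2 at the unadjusted p (15.2% of all genes). DESeq2 gave 1 of 6 members with an adjusted p (3.85% of all genes were called higher) and 2 of 7 at the unadjusted p (11.5% of all genes). Muc4 was also the only member whose CPM did not overlap between the groups, which held for 12.3% of all genes in the higher, 9.68% in the lower and 21.9% in either direction. The fitted log2 fold changes of the 5 members, 5-Fu+BBR over 5-Fu, ran from -0.36 to 1.04, beside a median of 0.01 over all genes tested.

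**Figure D2:**
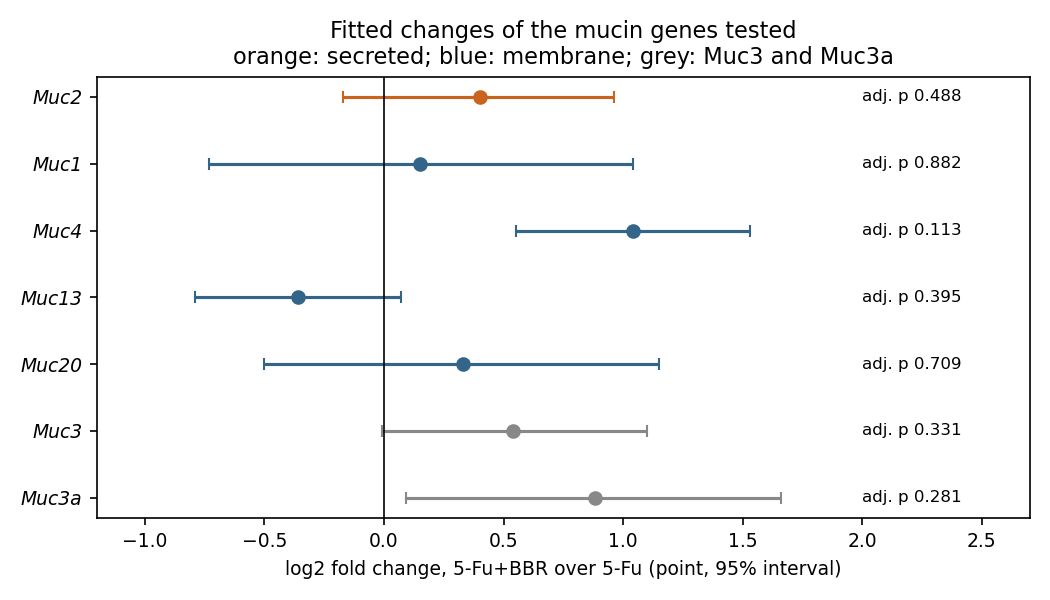
Log2 fold change of 5-Fu+BBR over 5-Fu (horizontal axis) with its 95% interval from edgeR for the 5 mucin genes tested and for Muc3 and Muc3a, with the adjusted p at the right. Muc4 at 1.04 and Muc3a at 0.88 have intervals above 0, Muc13 is the one gene with a negative estimate, and no adjusted p is under 0.05.

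Among the secreted mucins, Muc2 was the one that could be tested. Its level was 4094, 2679 and 2302 CPM in 5-Fu+BBR (replicates in order) against 1887, 2267 and 2744 CPM in 5-Fu. Replicate 1 of 5-Fu+BBR stood above all other libraries, and the remaining values of both groups were interleaved. The fitted fold was 1.32, a log2 fold change of 0.40 ± 0.25 (SE) with a 95% interval from -0.17 to 0.96 and an adjusted p of 0.488 by edgeR. Without 5-Fu+BBR replicate 1 the log2 fold change was 0.12 (edgeR adjusted p = 0.851), and with replicate 1 as the lone 5-Fu+BBR library, a choice made after seeing the data because of the kidney genes in the other 2, it was 0.82, a value of 1 library given with no test.

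Muc13 was at 2789, 1941 and 2088 CPM in 5-Fu+BBR against 3043, 2530 and 3184 CPM in 5-Fu. The 2 lowest values were those of 5-Fu+BBR replicates 2 and 3, the libraries with the high kidney genes, and replicate 1 lay within the range of 5-Fu. The log2 fold change was -0.36 ± 0.19, with a 95% interval from -0.79 to 0.07 and an adjusted p of 0.395 by edgeR. Against 5-Fu, 5-Fu+BBR replicate 1 alone gave -0.08, again with no test, and leaving that library out gave -0.53 (edgeR adjusted p = 0.234). The part of the kidney genes' tissue in this difference was not tested.

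Muc4, a membrane mucin that in rat and human cells binds the receptor ERBB2, showed the largest difference of the members. Its levels were 59.7, 49.7 and 42.5 CPM in 5-Fu+BBR against 20.1, 32.5 and 21.1 CPM in 5-Fu. Every 5-Fu+BBR library lay above every 5-Fu library, and 5-Fu replicate 2 came nearest. The fold was 2.06, with a log2 fold change of 1.04 ± 0.21 and a 95% interval from 0.55 to 1.53. The unadjusted p was 0.00125, at rank 222 of 20101 genes, and the adjusted p of 0.113 by edgeR did not pass. DESeq2 gave an adjusted p of 0.000933, in a test that called 3.85% of its 21798 genes higher. Leaving out 5-Fu replicate 2 gave a log2 fold change of 1.3 with an adjusted p of 0.0344 by edgeR, where 0.698% of genes were called higher. Over all alternatives run the log2 fold change stayed between 0.75 and 1.3, and the adjusted p ranged from 0.000933 to 0.631, the highest with 1 library in 5-Fu+BBR, where the spread came from 5-Fu alone. All 8 smooth muscle, all 5 fat cell and 7 of 8 immune cell markers also separated the groups in the same direction, where 12.3% of all genes did. Their part in the level of Muc4 was not tested. The remaining immune marker, S100a8, had a log2 fold change of -2.89 with overlapping groups.

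Muc1, a membrane mucin whose tail in human cells binds β-catenin, spread more within 5-Fu+BBR than between the groups. Its 27.5, 9.62 and 13.2 CPM in 5-Fu+BBR stood against 16.6, 16.6 and 12.1 CPM in 5-Fu, so that the highest and the lowest library were both in 5-Fu+BBR. The log2 fold change of 0.15 ± 0.38 (95% interval -0.73 to 1.04, adjusted p = 0.882 by edgeR) turned to -0.40 without 5-Fu+BBR replicate 1. Muc20, a small membrane mucin that in human kidney cells interacts with the receptor MET, was at 6.42, 4.27 and 3.88 CPM in 5-Fu+BBR against 3.93, 5.40 and 2.27 CPM in 5-Fu. The groups overlapped, and the log2 fold change was 0.33 ± 0.36 (95% interval -0.50 to 1.15, adjusted p = 0.709 by edgeR). The intervals of Muc1, Muc2 and Muc20 span 0 and each reach at least 0.96, so equal levels are not shown. The ratio of FPKM of Muc4 to that of its overlapping neighbour Muc20 was 3.19, 3.99 and 3.76 in 5-Fu+BBR against 1.76, 2.06 and 3.23 in 5-Fu, with 5-Fu replicate 3 inside the range of 5-Fu+BBR.

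The balance of secreted to membrane mucins was compared as a share of the 7 genes' summed level. Muc2 supplied at least 99.99% of the secreted and Muc13 at least 98.04% of the membrane FPKM of the 7 genes in every library, so this balance is in effect that of Muc2 to Muc13. The secreted share of the summed mucin FPKM was 38.0%, 36.7% and 31.6% in 5-Fu+BBR against 20.7%, 27.4% and 26.7% in 5-Fu. All 3 values of 5-Fu+BBR were higher, and the means differed by 10.5 percentage points (35.4% ± 3.38 in 5-Fu+BBR and 24.9% ± 3.68 in 5-Fu, SD, n = 3 each). The ratio of Muc2 to Muc13 FPKM was 0.626, 0.588 and 0.470 in 5-Fu+BBR against 0.264, 0.382 and 0.367 in 5-Fu. These are descriptions of chosen genes, given with no test. Muc2 was at 467, 326 and 275 FPKM in 5-Fu+BBR against 225, 285 and 301 FPKM in 5-Fu. Replicates 1 and 2 of 5-Fu+BBR thus lay above every 5-Fu library. Muc13 was at 745.8, 553 and 585 FPKM in 5-Fu+BBR against 850, 746.5 and 819 FPKM in 5-Fu, lowest in replicates 2 and 3 of 5-Fu+BBR. As a share of CPM, which favours long transcripts, the values were 58.7%, 57.2% and 51.7% in 5-Fu+BBR against 38.0%, 46.7% and 46.0% in 5-Fu.

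**Figure D3:**
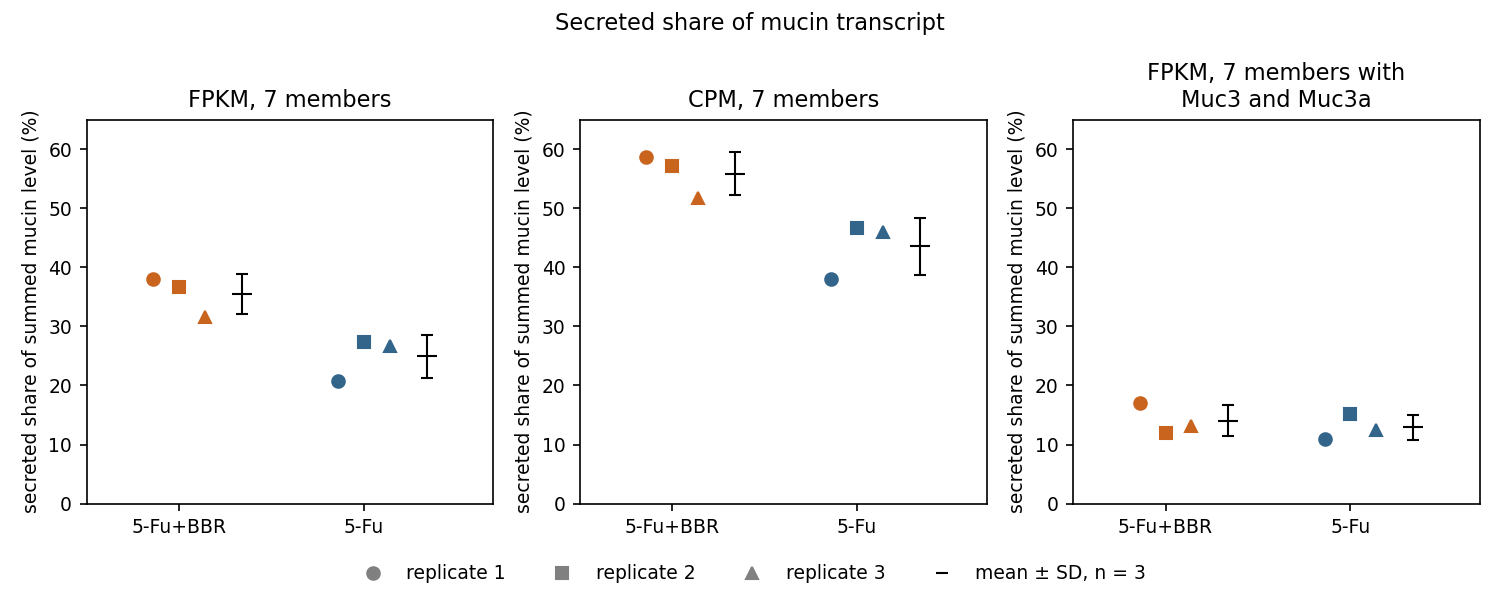
Secreted share of the summed mucin level (vertical axis, %) per library in 5-Fu+BBR (left in each panel) and 5-Fu, by FPKM and CPM over the 7 genes and by FPKM with Muc3 and Muc3a added to the membrane mucins; bars give the mean ± SD. The groups are apart in the first and second panels (31.6% or more against 27.4% or less by FPKM) and overlap in the third, where they average 14.1% and 12.9%.

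The separation did not hold once the other abundant membrane mucins of the colon were counted. Muc3 (ENSMUSG00000037390, chromosome 5, 137134922 to 137149322) and Muc3a (ENSMUSG00000094840, chromosome 5, 137208813 to 137212389), 59490 bases apart, are listed under gene models of 1940 and 1884 bases. Muc3 was higher than Muc13 per length in all 6 libraries, at 1419, 1742 and 1197 FPKM in 5-Fu+BBR against 918, 793 and 1233 FPKM in 5-Fu. With both added to the membrane side, the secreted share was 17.1%, 12% and 13.1% in 5-Fu+BBR against 11%, 15.2% and 12.5% in 5-Fu, and the groups overlapped. Muc3 had a log2 fold change of 0.54 ± 0.24 (adjusted p = 0.331 by edgeR), opposite in sign to Muc13. The ratio of Muc3 to Muc13 FPKM was 1.9, 3.15 and 2.05 in 5-Fu+BBR against 1.08, 1.06 and 1.51 in 5-Fu, a description given with no test. Muc3a was at 188, 204 and 83.1 CPM in 5-Fu+BBR against 79.8, 78.0 and 101 CPM in 5-Fu (log2 fold change 0.88 ± 0.33, adjusted p = 0.281 by edgeR), with 5-Fu+BBR replicate 3 within the range of 5-Fu. No word of 31 bases was shared between their annotated transcripts, or between those of any 2 of the 7 members.

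Of 16 further mucin-family genes listed, 11 had values and 7 were tested, Muc3 and Muc3a among them. Of these 7, 5 had positive and 2 negative log2 fold changes, with a median of 0.21, and 0 passed by edgeR. At an unadjusted p under 0.05, 1 was higher (Muc3a) and 1 lower. The lower one was Muc16, a very long membrane mucin known from mesothelium and the eye surface, at 0.761, 1.43 and 0.253 CPM in 5-Fu+BBR against 4.21, 2.41 and 4.43 CPM in 5-Fu (log2 fold change -2.18 ± 0.58, adjusted p = 0.163 by edgeR). Its groups did not overlap, which held in the lower direction for 9.68% of all genes. Muc16 was, however, at most 0.135 FPKM in every library. The mean log2 CPM of 5 mesothelial markers was 2.36, 3.72 and 2.48 in 5-Fu+BBR against 0.88, 1.54 and 4.18 in 5-Fu. It was highest in 5-Fu replicate 3, and the part of mesothelium in the level of Muc16 was not tested. Among the 5 is Krt19, also an epithelial marker here, at 2304 to 3314 CPM, so the mean does not measure mesothelium alone. Msln was highest in 5-Fu replicate 2 (17.9 CPM), and Upk3b, Lrrn4 and Wt1 were highest in 5-Fu replicate 3. Mcam, an adhesion molecule of vessels also named as a mucin, had a log2 fold change of 0.22. Muc12, Muc17, Muc21, Mucl1 and Mucl2 were not analysed here.

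Because the amount of epithelium can differ between pieces of colon, mucin levels were also set against marker genes of the same library. The 10 epithelial markers, which include keratins, claudins and Epcam, had a median log2 fold change of 0, and their summed level overlapped between the groups (13563 to 15670 CPM in 5-Fu+BBR, 13259 to 16698 CPM in 5-Fu). Relative to their mean, log2 CPM of Muc2 was higher by 1.87, 1.45 and 1.21 in 5-Fu+BBR against 0.86, 1.28 and 1.24 in 5-Fu. The group means differed by 0.38, and an exact two-sided permutation test gave p = 0.3, where 0.1 is the smallest value that 3 against 3 libraries allow. Relative to 10 goblet cell markers other than Muc2, the difference was 0.02 (exact permutation p = 1, two-sided). The goblet markers themselves summed to 11876, 11607 and 11378 CPM in 5-Fu+BBR against 7881, 5075 and 10209 CPM in 5-Fu. Their mean log2 CPM, which abundant genes weigh on less, was 8.43, 8.40 and 8.07 in 5-Fu+BBR against 8.01, 7.67 and 8.17 in 5-Fu and overlapped. It includes Retnlb, which was at 32.5, 128 and 11.6 CPM in 5-Fu+BBR against 45.4, 39.4 and 41.7 CPM in 5-Fu. The part of this unsteady marker in the overlap was not tested. Groups were apart and higher in 5-Fu+BBR for 2 of the 10 markers, where 12.3% of all genes were so. Of the 10, 9 had positive log2 fold changes (median 0.36), where 50.7% of all genes did. At an unadjusted p under 0.05 by edgeR 3 were higher and 0 lower, where 9.48% of all genes were higher and 6.08% lower. For Muc4, relative levels to epithelial markers were -4.23, -4.30 and -4.55 in 5-Fu+BBR against -5.69, -4.84 and -5.77 in 5-Fu, a difference of 1.07 that is as large as the one in CPM. Relative to goblet markers, 5-Fu replicate 2 (-2.65) lay within the range of 5-Fu+BBR (-2.76 to -2.53). Muc13 relative to epithelial markers was 1.31, 0.99 and 1.07 in 5-Fu+BBR against 1.55, 1.44 and 1.46 in 5-Fu, and here the groups did not overlap. Relative to 9 absorptive colonocyte markers, Muc13 was 3.76, 3.30 and 2.97 in 5-Fu+BBR against 4.03, 4.44 and 3.31 in 5-Fu and overlapped. So did Muc4, at -1.79, -1.98 and -2.64 in 5-Fu+BBR against -3.21, -1.84 and -3.92 in 5-Fu. How many of all genes separate on such relative levels was not counted.

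**Figure D4:**
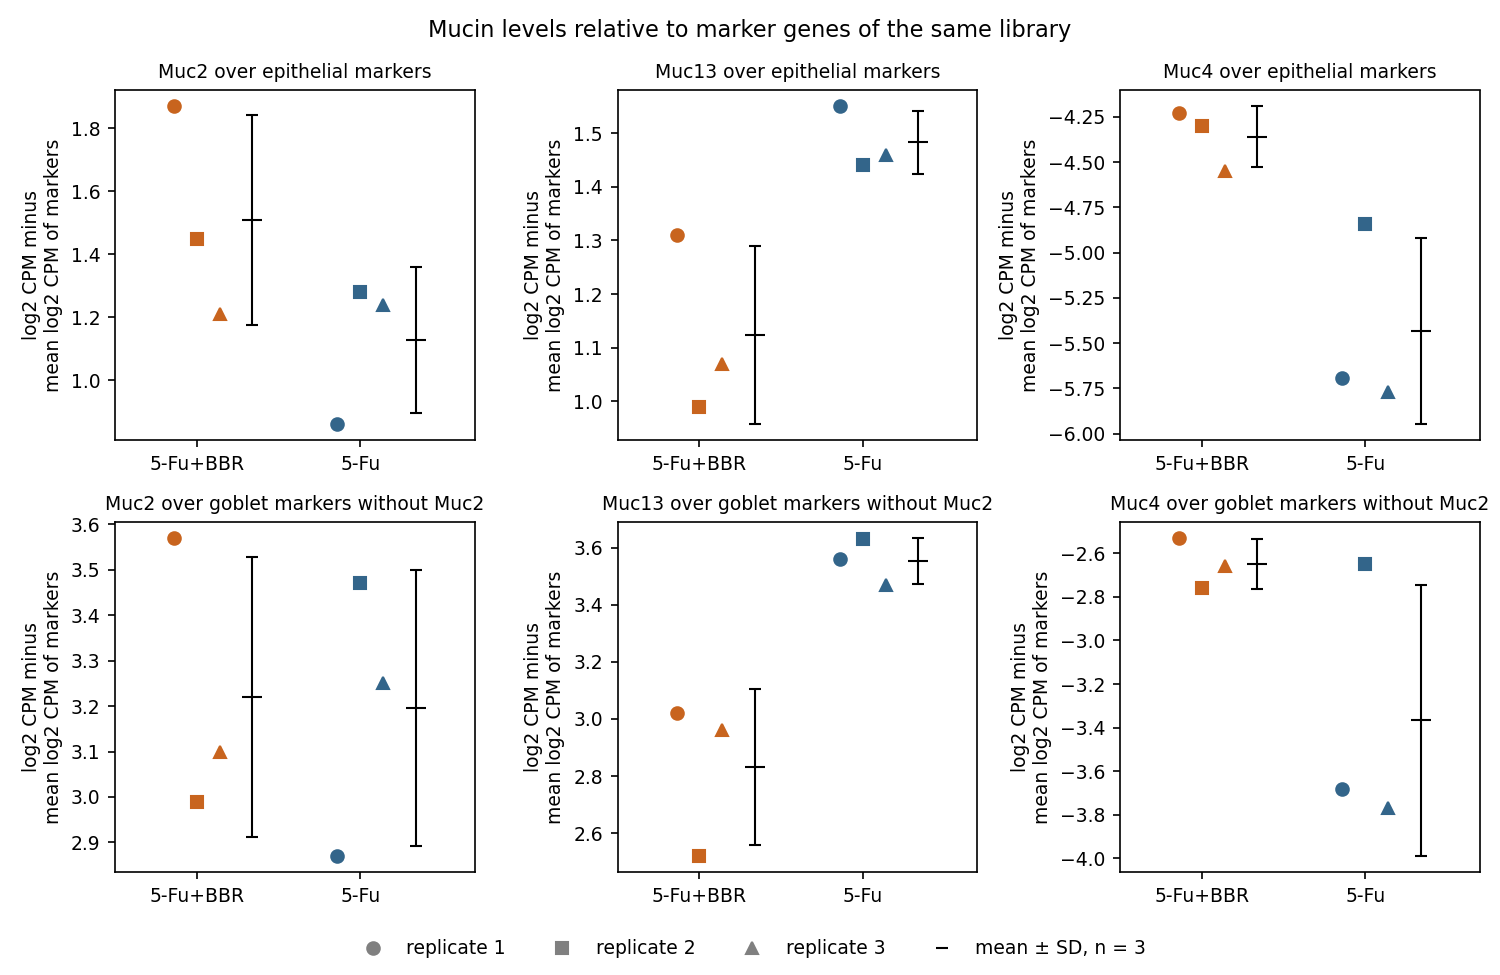
Log2 CPM of Muc2, Muc13 and Muc4 minus the mean log2 CPM of 10 epithelial markers (top) or 10 goblet cell markers (bottom), per library, in 5-Fu+BBR (left) and 5-Fu; bars give the mean ± SD. Muc13 is lower in all 3 5-Fu+BBR libraries by both measures, Muc4 is higher in all 3 relative to epithelial markers, and Muc2 overlaps in both.

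The enzymes that build mucin glycans were followed in 3 lists. The 14 GALNT enzymes tested, which start O-glycans by adding N-acetylgalactosamine to serine and threonine, had 4 positive and 10 negative log2 fold changes with a median of -0.11. For comparison, 50.7% of all genes tested were positive, and 9.48% were higher and 6.08% lower at an unadjusted p under 0.05, which holds for each list that follows. Of the GALNT genes 0 passed by edgeR, and at that unadjusted p 1 was higher (Galnt7, 0.33) and 3 lower (Galnt12, -0.46; Galnt4, -0.36; Galnt2, -0.34). Among 9 genes of core synthesis, with a median of 0.14, 0 passed by edgeR, and 1 was higher and 1 lower at an unadjusted p under 0.05. C1galt1, the enzyme that makes the core 1 disaccharide, was at 201, 174 and 184 CPM in 5-Fu+BBR against 244, 251 and 251 CPM in 5-Fu (log2 fold change -0.42 ± 0.11, adjusted p = 0.153 by edgeR). Gcnt1, which branches core 1 into core 2, was at 38.2, 40.0 and 44.4 CPM in 5-Fu+BBR against 21.7, 22.5 and 36.9 CPM in 5-Fu (log2 fold change 0.60 ± 0.21, adjusted p = 0.245 by edgeR). For both genes the groups did not overlap, and the same held for B3gnt3 (log2 fold change -0.36). Groups were apart and higher for 1 of the 9 genes and lower for 2. Over all genes tested, 12.3% were apart and higher and 9.68% lower.

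Of the capping and sulfation genes, 15 were tested, with a median of -0.16 and 0 that passed by edgeR, against 2 higher and 2 lower at an unadjusted p under 0.05. Fut2, the fucosyltransferase that puts the terminal α1,2-fucose on gut mucins, was at 310, 164 and 148 CPM in 5-Fu+BBR against 594, 392 and 566 CPM in 5-Fu. All 3 libraries of 5-Fu+BBR were below those of 5-Fu, and the log2 fold change was -1.32 ± 0.31 (fold 0.400, adjusted p = 0.148 by edgeR). Groups were apart and lower for 3 of the 15 genes, where 9.68% of all genes were so, and higher for 1, where 12.3% were. The sialyltransferase genes split: St6galnac2 averaged 49.0 ± 1.22 CPM in 5-Fu+BBR and 34.6 ± 6.0 CPM in 5-Fu (log2 fold change 0.50) and St3gal1 averaged 22.8 ± 5.65 CPM in 5-Fu+BBR and 34.3 ± 6.08 CPM in 5-Fu (log2 fold change -0.59), with adjusted p values of 0.162 and 0.249 by edgeR.

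Genes of mucus assembly and processing include enzymes and partners of MUC2. This list shares genes with the goblet markers above, Clca1 and Ern2 among them, and the goblet cell regulators share Atoh1. The counts of these lists are therefore not independent. Of 16 tested, 12 had positive log2 fold changes, where 50.7% of all genes did, the median was 0.23 and 0 passed by edgeR, against 3 higher and 0 lower at an unadjusted p under 0.05. Clca1, a goblet cell protease that processes the MUC2 network, was at 2100, 3279 and 2287 CPM in 5-Fu+BBR against 837, 465 and 1383 CPM in 5-Fu (log2 fold change 1.51 ± 0.39, adjusted p = 0.163 by edgeR). The groups were well apart. They were apart and higher for 2 of the 16 genes, Clca1 and Tgm3, where 12.3% of all genes were so. Tgm3 averaged 279 ± 34.6 CPM in 5-Fu+BBR and 138 ± 95.2 CPM in 5-Fu (log2 fold change 1.01 ± 0.51, adjusted p = 0.408 by edgeR). Ern2 (0.38) and Nlrp6 (0.55) were higher at an unadjusted p under 0.05 by edgeR, with overlapping groups. Among the goblet cell products that overlapped, Fcgbp, a protein bound to the MUC2 gel, had a log2 fold change of 0.33. That of Zg16, a mucus lectin, was 0.62, and that of Agr2, the disulfide isomerase needed to make MUC2, 0.07. The 12 goblet cell regulators had a median of 0.08, with 2 higher and 0 lower at an unadjusted p under 0.05 and 0 that passed by edgeR. Atoh1, the transcription factor that commits cells to the secretory fate, was at 78.2, 62.1 and 60.0 CPM in 5-Fu+BBR against 48.0, 46.8 and 55.4 CPM in 5-Fu (log2 fold change 0.42 ± 0.13, adjusted p = 0.215 by edgeR). Hes1, the Notch target that opposes that fate, had a similar log2 fold change of 0.40 (adjusted p = 0.261 by edgeR).

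Partners of the membrane mucins and the receptors upstream of mucin expression were followed last. Of 10 partners tested, 8 were negative and 2 positive, where 50.7% of all genes were positive. Their median was -0.15 and 0 passed by edgeR, against 0 higher and 1 lower at an unadjusted p under 0.05. The lower one was Ctnnb1, which encodes β-catenin, with 744, 702 and 749 CPM in 5-Fu+BBR against 909, 898 and 1046 CPM in 5-Fu (log2 fold change -0.38 ± 0.13, edgeR adjusted p = 0.227). Erbb2 and Erbb3, receptors linked to MUC4, had log2 fold changes of -0.28 and -0.32, opposite in sign to Muc4. Of 9 cytokine receptor and STAT genes upstream of mucin expression, 6 were negative, the median was -0.22 and 0 passed by edgeR, against 0 higher and 1 lower (Stat3, -0.39) at an unadjusted p under 0.05.

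**Figure D5:**
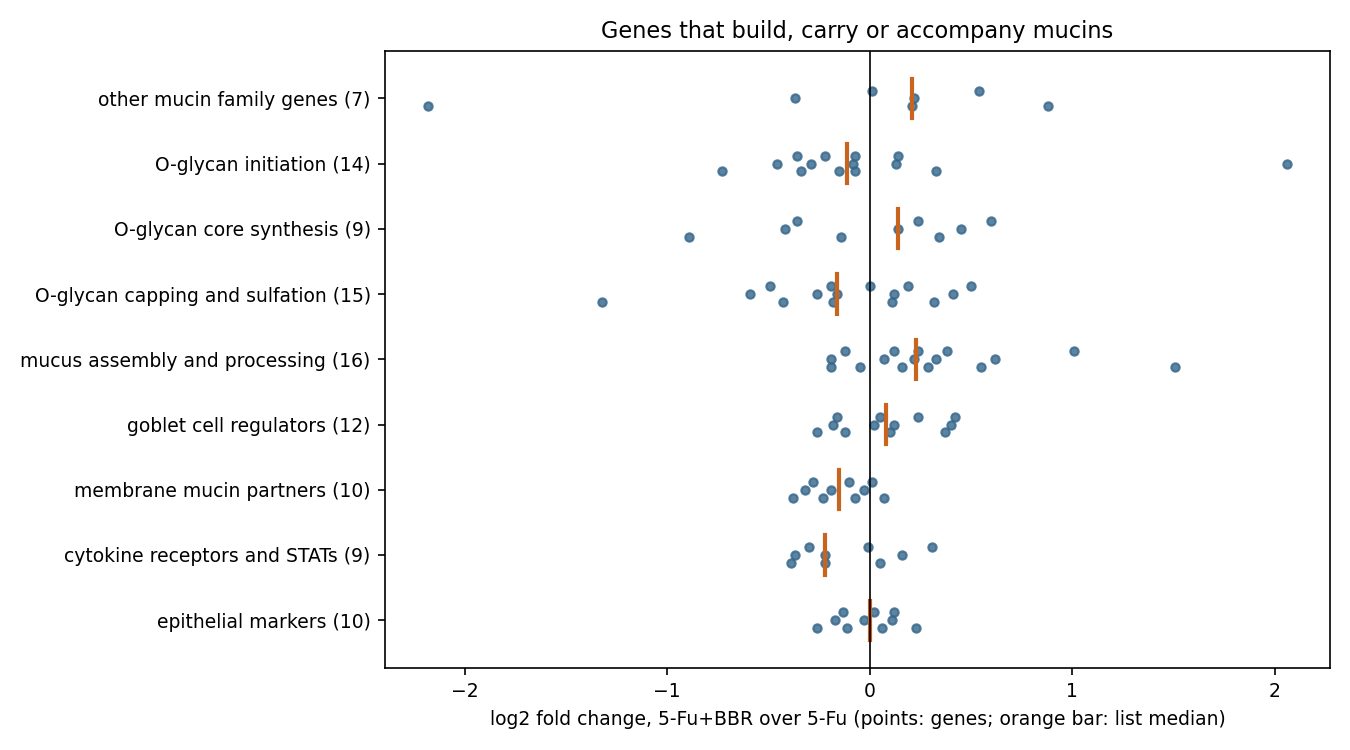
Log2 fold changes of 5-Fu+BBR over 5-Fu (horizontal axis) for the genes tested in 8 lists around the mucins and in the epithelial markers, 1 point per gene, with the list median as an orange bar and the number tested in brackets. Medians lie between -0.22 and 0.23, and Muc16 (-2.18), Fut2 (-1.32), Galnt14 (2.06) and Clca1 (1.51) stand farthest out, Galnt14 at under 0.8 CPM in every library.

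The genes whose log2 CPM most closely followed Muc2, Muc13, Muc4 and Muc1 over the 6 libraries, among 11658 genes with a mean of at least 1 FPKM, were not other mucins. Muc2 was matched best by Pomt1, Sik3 and Tcf25 (Pearson's r of 0.9949, 0.9928 and 0.9867). Muc13 went with Rusc1, Smim31 and Tmem54 (0.9916, 0.9915 and 0.9912). Muc4 went with Ctse, Lmo2 and Tlr9 (0.9956, 0.9955 and 0.9935), and Muc1 with BC002059, Pnp2 and Dot1l (0.9921, 0.9832 and 0.9820). With 6 libraries and so many genes, values this high are reached by the choice of the best, and they are given as a description.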

How the data were processed

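RNA of 6 colon libraries was measured by strand-marked, polyadenylated RNA sequencing, per the labels' protocols. Per the submitters' processing notes, GRCm38, StringTie 1.3.4d, HISAT2 2.0.4, cutadapt 1.9, edgeR, DESeq2 and UMI-tools were used. Their roles and the annotation version are not stated there. Per the file headers, the authors deposited estimated counts, which are whole numbers, and FPKM per gene and library. The deposited count was set against FPKM times the GENCODE vM21 transcript length times a constant of the library. Among single-transcript genes with over 50 counts, at least 92.1% lay within 2%. FPKM is itself scaled to length and depth, so this cannot tell read counts from numbers derived from coverage. If they were derived from coverage, low counts may look more precise than they are.

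Library totals ran from 53824752 to 63831168. All pairs of libraries differed beyond sampling noise (chi-square per gene 73.9 to 211). Counts were filtered with filterByExpr (20101 of 30777 genes kept), scaled with TMM and tested two-sided in R 4.3.3 by the robust quasi-likelihood method of edgeR 4.0.16, with no covariates and Benjamini-Hochberg adjustment over all genes tested. SE and 95% intervals come from its F statistic; the biological coefficient of variation was 0.296. Log2 CPM used a prior count of 2. The steps were tested on simulated data. Alternatives were a replicate block, no filter, 50 counts in 3 libraries, DESeq2 size factors, DESeq2 1.42.0, limma-voom and limma-trend (limma 3.58.1) on log2(FPKM + 1) and log2(FPKM + 0.1) where 3 libraries reached 1 FPKM, counts divided by 4, an adjusted p under 0.1 and leaving out libraries.

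Members and lists were chosen with earlier results of these data known. Besides the members, the rule named up to 4 genes of smallest p per list and the 3 of most similar pattern per member. Fcgbp, Zg16, Agr2, Epcam, Atp4a, Galnt14, Muc5b, Kap, Nphs1, S100a8, Upk3b and Retnlb were named after their values were seen. Promoters are from RefSeq (GRCm38.p6). Figures were drawn with matplotlib 3.10.9.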

Additional observations from a re-analysis of the deposited data

How the results depend on the processing

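The log2 fold changes of Muc2, Muc4, Muc13 and Muc20 kept their direction under every alternative that gave a value. Without single replicates they ran from 0.12 to 0.56 for Muc2, from 0.91 to 1.3 for Muc4, from -0.53 to -0.26 for Muc13, from 0.06 to 0.65 for Muc20 and from -0.40 to 0.43 for Muc1, which turned negative without 5-Fu+BBR replicate 1; the cause was not tested. Muc4 passed with DESeq2 (1.03) and without 5-Fu replicate 2 (1.3), each time as 1 member called higher, so members called higher ran from 0 to 1 without single replicates. Over all genes, 12 were called higher and 3 lower, against 91 and 22 with a replicate block, 64 and 13 with no filter, 839 and 261 with DESeq2, 119 and 25 at an adjusted p under 0.1, 0 to 145 and 0 to 15 without single replicates, 0 and 0 without 5-Fu+BBR replicates 2 and 3 (the lone library is then assumed to vary like those of 5-Fu), and 1 lower with limma-trend on log2(FPKM + 0.1).

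No label ties the same-numbered libraries to each other. The correlations of their deviations were 0.0579, 0.0242 and 0.123, and 3 of 6 libraries correlated best with their own number. So few libraries cannot settle whether they were paired. With the replicate block the members had log2 fold changes of 0.37 (Muc2), 0.03 (Muc1), 1.06 (Muc4), -0.37 (Muc13) and 0.38 (Muc20), and it changed no member's call. The difference in secreted share, 10.5 percentage points, became 1.17 with Muc3 and Muc3a counted as membrane mucins, an alternative chosen after seeing the data. The difference of Muc2 relative to epithelial markers, 0.383, became 0.0233 relative to goblet markers and 0.743 without 5-Fu+BBR replicates 2 and 3. Muc5ac and Muc6 were under edgeR's filter, and Muc20 under the FPKM minimum of limma-trend, so those fits gave no value used here. Depth limits Muc20, with 115 to 380 estimated counts per library, more than Muc2, with 104736 to 242133.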
